A study of Homo sapiens with 8 samples.

Results

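The long noncoding RNAs described here are known from cancer research and were followed through RNA-seq of bladder cancer cells in which PAI-1 was depleted. The 10 genes were chosen by name and not by measured values, as those with the symbols UCA1, H19, MALAT1, NEAT1, GAS5, PVT1, SNHG1, CRNDE, HOTAIR and MEG3. Under these symbols the expression table holds 6 of its 27475 human gene entries, for 5 of the 10 genes: MALAT1 with 2 entries, NEAT1, PVT1, CRNDE and MEG3. UCA1, H19, GAS5, SNHG1 and HOTAIR are not analysed here. The cells were of the lines UM-UC-3 and RT112, which are established lines from human bladder cancers. Each line was transfected with 100 pmol of siRNA and kept for 72 h: in the siPAI-1 groups 3 pooled siRNAs targeted PAI-1, and in the Scr groups 3 pooled siRNAs had scrambled sequences as a control. PAI-1 inhibits the plasminogen activators uPA and tPA. Each of the 4 groups has 2 libraries, numbered 1 and 2. The methods describe knock-down in 3 independent experiments, but neither they nor the labels tie the libraries to these experiments, so p-values measure only the spread between these libraries, which may be technical.

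Long noncoding RNAs are transcripts that are not translated into protein. NEAT1 is the RNA scaffold of paraspeckles, nuclear bodies that also contain proteins such as NONO and SFPQ. MALAT1 lies in nuclear speckles, next to the splicing factors of the cell. Both RNAs are made from neighbouring genes, and MALAT1 and the long form of NEAT1 end in a triple helix in place of a poly(A) tail. PVT1 is transcribed from the region downstream of the proto-oncogene MYC and is often co-amplified with it in tumors. CRNDE is a transcript divergent from the developmental transcription factor gene IRX5 and was first described in colorectal tumors. MEG3 is an imprinted RNA expressed from the maternal allele of the DLK1-MEG3 locus and is frequently silenced in tumors.

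The values are TPM, a measure of transcript abundance in which the reads of a gene are divided by its length and every library is scaled to the same sum. They can therefore be compared between genes, but they show a share of the library and not a number of molecules per cell. In these bulk samples fewer cells that make an RNA and less RNA per cell cannot be told apart. The depth was estimated at 29.3 to 34.2 M reads per library (M for mega). All entries annotated as long noncoding RNAs together made up 0.524% to 0.586% of the TPM. Of 11 urothelial and epithelial markers, 10 had a mean of at least 1 TPM in RT112 and 5 in UM-UC-3, where EPCAM, CDH1 and UPK2 stayed below 0.5 TPM. Their summed level was 11686 to 13074 TPM in RT112 and 225 to 244 TPM in UM-UC-3, while that of 6 mesenchymal markers was 115 to 218 TPM in RT112 and 3022 to 3309 TPM in UM-UC-3. Most of the mesenchymal sum in UM-UC-3 was VIM, at 2852.45 to 3142.15 TPM, and ZEB1 and ZEB2 were also higher there. SNAI2 was the other way round, at 15.73 to 18.81 TPM in UM-UC-3 and 42.91 to 70.41 TPM in RT112, and FN1 and CDH2 overlapped between the lines and were highest in RT112. UPK3A, a uroplakin of the differentiated urothelium, did not exceed 0.08 TPM in any library. Among 3 blood markers PTPRC stayed at or below 0.03 TPM and CD3E at or below 0.2 TPM, whereas CD68 was at 272.42 to 279.48 TPM in UM-UC-3 and 14.15 to 19.5 TPM in RT112. The endothelial markers PECAM1 and CDH5 summed to at most 2.09 TPM.

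Where the genes lie and what precedes them is given on GRCh38, the build of the files, with RefSeq positions of GRCh38.p14. NEAT1 (ENSG00000245532.5) spans positions 65422798 to 65445540 of chromosome 11 and MALAT1 (ENSG00000251562.7) positions 65497738 to 65506516, so that 52.2 kb separate them. CRNDE (ENSG00000245694.8) spans 54918863 to 54928886 of chromosome 16, at a distance of 1978 bases from IRX5. MEG3 spans 100826108 to 100861026 of chromosome 14, 87.9 kb from DLK1. The promoter windows below, from 250 bases before the transcription start to 50 bases after it, are from RefSeq and are shown because they set an RNA expressed in both lines beside one at 0 TPM in both. They are written 5′ to 3′ on the strand of the gene. Capitals mark 4 searched motifs on either strand: the TATA box letters TATAAA, the GC box letters GGGCGG, the CRE letters TGACGTCA and the CAAT box letters CCAAT, of which no matches overlap here. The CRNDE window is chr16:54928837-54929136 on the minus strand, the MALAT1 windows are chr11:65497488-65497787 and chr11:65498795-65499094 on the plus strand, for 2 annotated starts, and the MEG3 window is chr14:100825858-100826157 on the plus strand.
CRNDE: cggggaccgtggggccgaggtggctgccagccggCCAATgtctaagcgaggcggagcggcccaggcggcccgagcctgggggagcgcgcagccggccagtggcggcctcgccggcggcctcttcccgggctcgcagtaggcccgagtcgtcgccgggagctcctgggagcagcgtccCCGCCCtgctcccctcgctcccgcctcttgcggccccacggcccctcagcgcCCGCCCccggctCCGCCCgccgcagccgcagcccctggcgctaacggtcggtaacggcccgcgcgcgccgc
MALAT1, first start: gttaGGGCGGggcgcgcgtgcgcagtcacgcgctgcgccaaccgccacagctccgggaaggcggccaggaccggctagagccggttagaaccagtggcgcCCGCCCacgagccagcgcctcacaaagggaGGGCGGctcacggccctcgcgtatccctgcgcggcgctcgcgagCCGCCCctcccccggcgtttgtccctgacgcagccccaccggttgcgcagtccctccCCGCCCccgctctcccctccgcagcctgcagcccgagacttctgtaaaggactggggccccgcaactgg
MALAT1, second start: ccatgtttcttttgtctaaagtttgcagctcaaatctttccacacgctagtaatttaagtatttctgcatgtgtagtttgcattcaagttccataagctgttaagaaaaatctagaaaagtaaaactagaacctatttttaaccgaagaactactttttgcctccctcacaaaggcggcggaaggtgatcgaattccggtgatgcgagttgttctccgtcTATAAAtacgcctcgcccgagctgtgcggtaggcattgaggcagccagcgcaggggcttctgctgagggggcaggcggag
MEG3: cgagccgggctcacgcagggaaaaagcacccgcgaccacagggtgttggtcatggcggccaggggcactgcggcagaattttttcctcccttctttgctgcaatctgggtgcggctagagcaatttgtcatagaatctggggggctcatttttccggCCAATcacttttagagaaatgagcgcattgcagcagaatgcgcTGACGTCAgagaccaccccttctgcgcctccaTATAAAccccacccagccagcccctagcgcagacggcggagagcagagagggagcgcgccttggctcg

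The CRNDE window held 44 CpG dinucleotides, more than 95.8% of 35116 RefSeq promoter windows of 300 bases, whose median was 14. It contained 3 matches of GGGCGG, a motif present in 45.0% of all windows, and 1 of CCAAT, present in 34.6%. The window of the first MALAT1 start had 37 CpG and 5 matches of GGGCGG. That of the second start had 14 CpG and 1 match of TATAAA, which 11.5% of all windows contain. The MEG3 window had 19 CpG and 1 match each of TATAAA, of CCAAT and of the CRE letters, the last present in 1.85% of all windows. Windows of other annotated MEG3 starts, at 100826118 and 100826132, had 17 and 18 CpG and the same motif matches. The matches describe the letters and are no measured binding. MEG3 was listed at 0 TPM in all 8 libraries. The other measured transcripts of its imprinted locus, DLK1, RTL1, MEG8 and MEG9, were also listed at 0 TPM in all 8, and a value of 0 can be a failed estimate as well as a low level.

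The 4 remaining long noncoding RNAs stood far above the typical one. The median of the long noncoding RNAs above 0 was 0.205 to 0.245 TPM across the 4 groups, and the median of all genes above 0 was 7.86 to 9.02 TPM. This median and the ranks cover only entries annotated as long noncoding RNAs. RNAs without an entry, which may include abundant ones, are not ranked. NEAT1 had the highest level of the 4 in UM-UC-3, with means of 106 ± 8.47 TPM in Scr and 113 ± 0.721 TPM in siPAI-1 (SD, n = 2), and ranked 4th of 1812 and 3rd of 1817 long noncoding RNAs above 0. In RT112 it ranked 12th of 1672 with Scr and 11th of 1828 with siPAI-1. PVT1 ranked between 8th and 12th in all 4 groups. MALAT1 ranked 13th and 12th in UM-UC-3 and 32nd and 31st in RT112, and CRNDE 15th and 13th in UM-UC-3 and 42nd and 40th in RT112. MALAT1 is usually among the most abundant long noncoding RNAs, and the libraries were made with a kit that selects mRNA. What part the missing poly(A) tail has in the level of MALAT1, or of the long form of NEAT1, was not tested. The NEAT1 entry does not separate the forms of this RNA. In UM-UC-3 the order of the means was NEAT1, PVT1, then MALAT1 and CRNDE, whose ranges overlapped in both groups. PVT1 and CRNDE also overlapped in UM-UC-3 Scr, with the lower PVT1 value at 38.3 TPM and the higher CRNDE value at 38.48 TPM. In RT112 Scr the order was PVT1, NEAT1, then MALAT1 and CRNDE with overlapping ranges, and in RT112 siPAI-1 NEAT1 and PVT1 overlapped and lay above MALAT1, which lay above CRNDE.

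**Figure D1:**
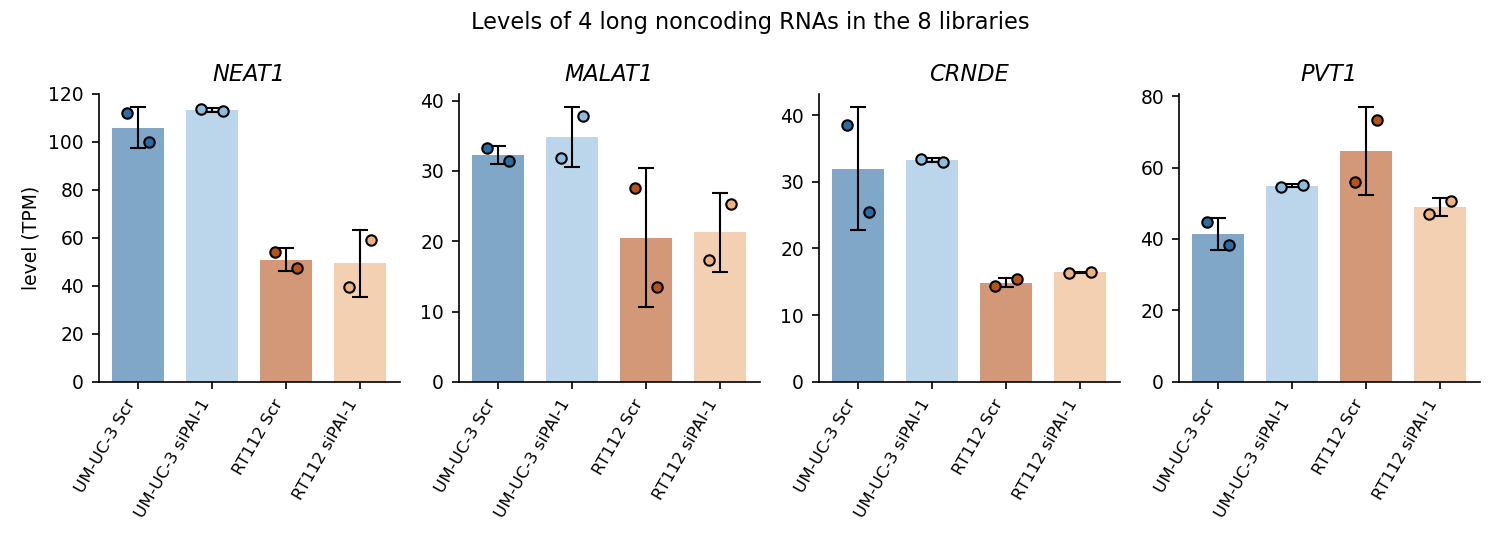
Levels in TPM (vertical axes, each from 0) of NEAT1, MALAT1, CRNDE and PVT1 in the 4 groups on the horizontal axes. Points are the 2 libraries of a group, bars their mean and error bars the SD. NEAT1, MALAT1 (main entry) and CRNDE are lower in all RT112 libraries than in all UM-UC-3 libraries. PVT1 is higher in RT112 with Scr but lower with siPAI-1.

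The first comparison asked how the cell lines differ in the control state. NEAT1 and CRNDE were lower and PVT1 was higher in RT112 Scr than in UM-UC-3 Scr. These 3 of 5 tested entries passed an adjusted p of 0.05 in limma, and 51.6% of the 19201 genes tested did, so the share is near that of all genes. The values of the 2 groups did not overlap for any of the 5 entries, which held for 72.3% of all genes. In the siPAI-1 libraries, which are other libraries of the same lines, 2 of 4 entries were called, beside 52.2% of all genes, and all 4 entries did not overlap, beside 73.7%. The lines differ in their markers as given above and in the share of mitochondrial RNA, which was 2.45% to 3.09% of the TPM in UM-UC-3 and 3.89% to 4.88% in RT112. With 1 line of each kind, these differences cannot be told apart from one another.

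NEAT1 was measured at 111.91 and 99.93 TPM in UM-UC-3 Scr and at 54.22 and 47.64 TPM in RT112 Scr. With siPAI-1 it was at 113.82 and 112.8 TPM in UM-UC-3 and at 39.61 and 59.16 TPM in RT112. All 4 UM-UC-3 libraries thus lay above all 4 RT112 libraries. The log2 fold change of RT112 against UM-UC-3 was -1.06 (SE 0.101, limma adjusted p = 0.00245) in Scr, which is 2.08-fold lower, and -1.23 (SE 0.210, adjusted p = 0.0117) in siPAI-1. Without any one of the 4 Scr libraries the adjusted p was between 0.0522 and 0.0699, with a log2 fold change of -1.15 to -0.96. In siPAI-1 the call was lost without UM-UC-3 siPAI-1 library 1 (adjusted p = 0.179) or 2 (0.175). In each such fit the lone library is taken to vary like the other group. The RT112 siPAI-1 libraries differed 1.49-fold in NEAT1, a larger difference between replicates than in 96.0% of 6842 genes whose mean was 10 to 100 TPM.

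CRNDE was at 38.48 and 25.48 TPM in UM-UC-3 Scr and at 14.37 and 15.42 TPM in RT112 Scr. In the siPAI-1 libraries it was at 33.41 and 32.99 TPM in UM-UC-3 and at 16.33 and 16.49 TPM in RT112. As with NEAT1, no RT112 library reached the lowest UM-UC-3 library. The log2 fold change was -1.07 (SE 0.225, limma adjusted p = 0.021) in Scr and -1.01 (SE 0.0721, adjusted p = 0.00127) in siPAI-1, or 2.10-fold and 2.02-fold lower. The UM-UC-3 Scr libraries differed 1.51-fold, more than in 96.8% of genes of this level. In Scr the call was lost without RT112 Scr library 1 (adjusted p = 0.226), RT112 Scr library 2 (0.203) or UM-UC-3 Scr library 1 (0.0528). In siPAI-1 the adjusted p was 0.0176 to 0.0291 without each library in turn. IRX5, the divergent neighbour of CRNDE, was at 2.31 to 3.19 TPM in UM-UC-3 and at 1.7 to 2.34 TPM in RT112, and its log2 fold change of -0.56 in Scr did not pass (SE 0.260, limma adjusted p = 0.155). IRX3, another gene of this Iroquois cluster, was 1.04 higher in RT112 on the log2 scale in Scr (SE 0.214, limma adjusted p = 0.0198).

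MALAT1 was at 33.21 and 31.42 TPM in UM-UC-3 Scr and at 27.52 and 13.5 TPM in RT112 Scr. With siPAI-1 it was at 31.84 and 37.83 TPM in UM-UC-3 and at 17.34 and 25.27 TPM in RT112. Every RT112 library lay below every UM-UC-3 library, but the log2 fold changes of -0.74 in Scr (SE 0.368, limma adjusted p = 0.175) and -0.73 in siPAI-1 (SE 0.221, adjusted p = 0.0563) did not pass the threshold. The 95% intervals were -1.76 to 0.28 and -1.34 to -0.11. The RT112 Scr libraries differed 2.04-fold, and 99.4% of the 6842 genes of this level had a smaller difference there. Without RT112 Scr library 1 the log2 fold change in Scr was -1.25 and was called (adjusted p = 0.0322), and without RT112 Scr library 2 it was -0.23. The second MALAT1 entry (ENSG00000279576.1) was at 0.03 TPM in RT112 Scr library 1, at 2.41 TPM in RT112 Scr library 2 and listed at 0 in the other 6 libraries. In RT112 Scr library 2, where the main entry was lowest, it made up 15.1% of both entries together. Since reads may be split between these entries, the MALAT1 level of that library is uncertain, and with both summed it was 15.91 TPM.

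PVT1 (ENSG00000249859.7) lies at 127794524 to 128101256 of chromosome 8, 51.6 kb downstream of MYC. It was at 44.68 and 38.3 TPM in UM-UC-3 Scr and at 55.89 and 73.28 TPM in RT112 Scr. With siPAI-1 it was at 54.57 and 55.18 TPM in UM-UC-3 and at 47.08 and 50.61 TPM in RT112. RT112 was therefore the line with more PVT1 in Scr and the line with less in siPAI-1, without overlap in either. The log2 fold change of RT112 against UM-UC-3 was 0.63 in Scr (SE 0.168, limma adjusted p = 0.0402) and -0.17 in siPAI-1 (SE 0.0661, adjusted p = 0.105). The call in Scr was lost without any one of the 4 libraries: the adjusted p was 0.0979 without RT112 Scr library 1, 0.199 without RT112 Scr library 2, 0.207 without UM-UC-3 Scr library 1 and 0.304 without UM-UC-3 Scr library 2. In siPAI-1 the difference was called without RT112 siPAI-1 library 2 (adjusted p = 0.0498). MYC, the neighbour that encodes a growth-promoting transcription factor, was at 150.83 to 176.39 TPM in UM-UC-3 and at 167.25 to 186.91 TPM in RT112, and its log2 fold changes of 0.16 and 0.14 did not pass (SE 0.0817 and 0.0531, limma adjusted p = 0.176 and 0.0896).

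**Figure D2:**
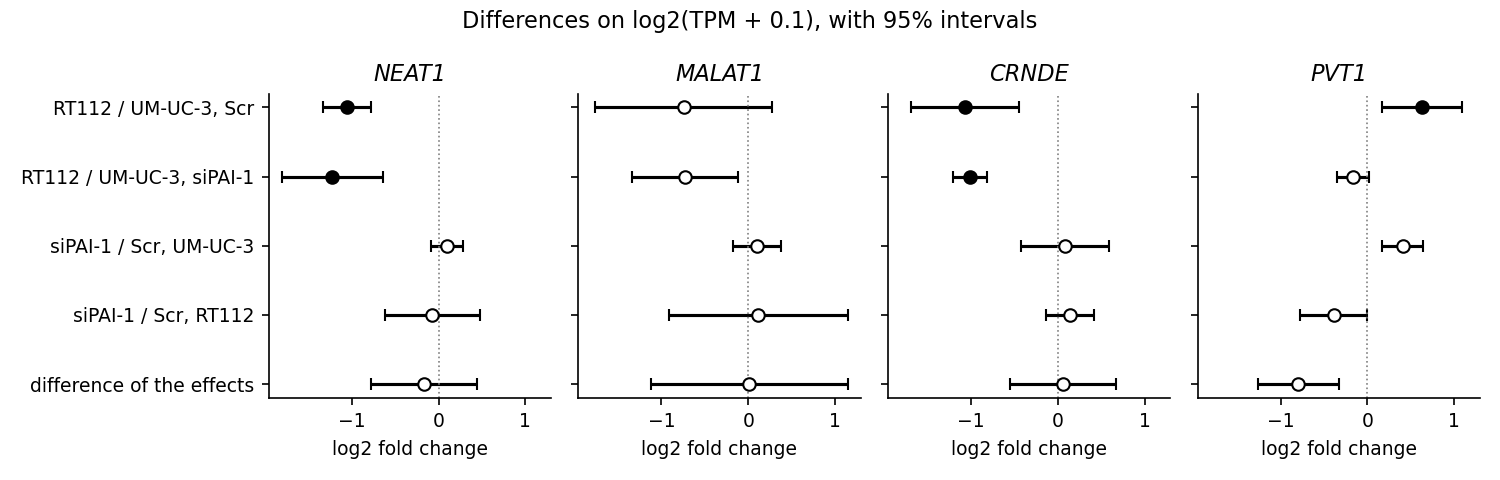
Log2 fold changes on log2(TPM + 0.1) with 95% intervals (horizontal axes) in 5 comparisons (vertical axis) for each of the 4 RNAs. Filled points passed an adjusted p of 0.05 in limma, which was the case for NEAT1, CRNDE and PVT1 between the lines in Scr and for NEAT1 and CRNDE in siPAI-1.

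The second comparison asked what PAI-1 depletion did to these RNAs within each line. No member was called in UM-UC-3 or in RT112, and by limma no gene was, which is 0% of 18528 genes for the former and 0% of 18437 for the latter. At an unadjusted p under 0.05, 1 of 4 entries passed in UM-UC-3, where 6.01% of genes did, and 1 of 5 in RT112, where 5.77% did. It was PVT1 in both lines. In RT112 PVT1 missed this limit under 5 of 9 alternatives to the fit and without RT112 Scr library 2 or either RT112 siPAI-1 library, and in UM-UC-3 it missed it without either UM-UC-3 siPAI-1 library. The values with siPAI-1 and Scr did not overlap for NEAT1 and PVT1 in UM-UC-3, beside 32.2% of all genes. In RT112 this was so for CRNDE, PVT1 and the second MALAT1 entry, beside 32.7% of all genes. Both lines were compared with their own Scr libraries.

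In UM-UC-3 all PVT1 values with siPAI-1 were above those with Scr, with means of 54.9 ± 0.431 and 41.5 ± 4.51 TPM (SD, n = 2), and in RT112 all were below, with means of 48.8 ± 2.5 and 64.6 ± 12.3 TPM. The log2 fold change was 0.41 in UM-UC-3 (95% interval 0.17 to 0.65, limma adjusted p = 0.791) and -0.39 in RT112 (-0.77 to -0.0058, adjusted p = 0.838). The difference of the effects, RT112 minus UM-UC-3, was -0.80 (SE 0.194, 95% interval -1.26 to -0.33, limma adjusted p = 0.632). It was the 1 of 5 entries below an unadjusted p of 0.05 in this test, which was reached by 6.76% of 20274 genes, and after adjustment by 0%. Among these genes 454, or 2.24%, were higher without overlap in UM-UC-3 and lower without overlap in RT112, as PVT1 was. This share leaves out genes with the reverse order, although a member with that order would have been flagged as well. Leaving out single libraries moved the effect between 0.30 (without UM-UC-3 Scr library 2) and 0.52 in UM-UC-3, and between -0.59 (without RT112 Scr library 1) and -0.19 (without RT112 Scr library 2) in RT112. MYC was called in neither line and was at 176.39 and 154.06 TPM in UM-UC-3 Scr, 158.45 and 150.83 TPM in UM-UC-3 siPAI-1, 186.91 and 182.56 TPM in RT112 Scr, and 167.25 and 174.66 TPM in RT112 siPAI-1. Its log2 fold changes were -0.09 in UM-UC-3 (95% interval -0.30 to 0.12) and -0.11 in RT112 (-0.25 to 0.03), with a difference of -0.02 between them (-0.27 to 0.23).

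**Figure D3:**
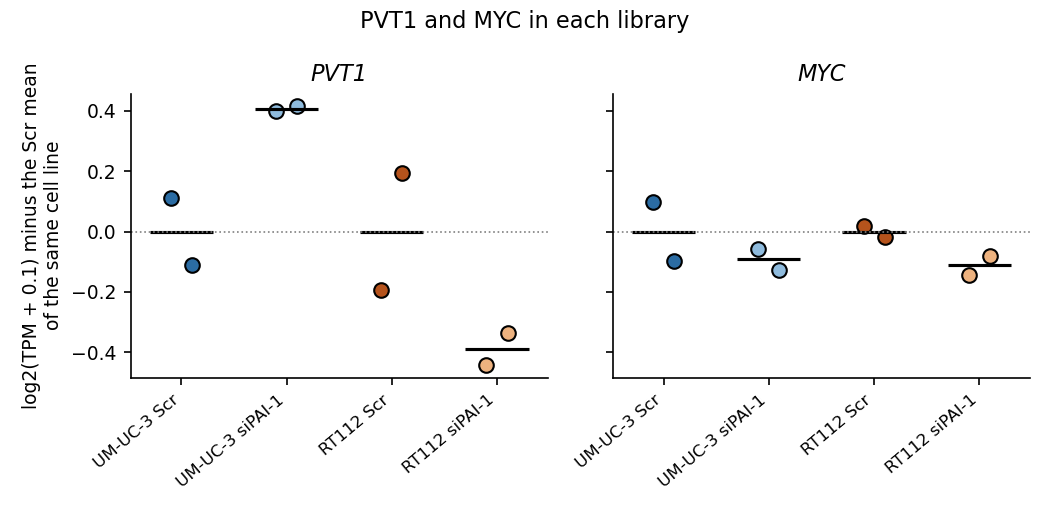
PVT1 and its neighbour MYC in each library, as log2(TPM + 0.1) minus the Scr mean of the same cell line (vertical axis), for the 4 groups (horizontal axis). Points are libraries and lines group means. PVT1 lies above 0 in both UM-UC-3 siPAI-1 libraries and below 0 in both RT112 siPAI-1 libraries, while the MYC means of siPAI-1 are -0.09 and -0.11.

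For the other 3 RNAs the intervals bound what an effect of siPAI-1 could be in these libraries. The log2 fold change of NEAT1 was 0.10 in UM-UC-3 (95% interval -0.09 to 0.28) and -0.07 in RT112 (-0.62 to 0.48). That of CRNDE was 0.08 in UM-UC-3 (-0.43 to 0.60) and 0.14 in RT112 (-0.14 to 0.42). MALAT1 changed by 0.10 in UM-UC-3 (-0.17 to 0.38) and by 0.12 in RT112 (-0.91 to 1.15), where the libraries spread most. The differences of the effects between the lines were -0.17 for NEAT1, 0.06 for CRNDE and 0.01 for MALAT1, with limma adjusted p of 0.894 to 0.996.

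By the distance of their centred log2 values over the 8 libraries, the genes most like each RNA were taken from 12799 candidates averaging 1 TPM or more. For NEAT1 these were CD109, which encodes a cell surface protein, and ZNF281, which encodes a zinc finger protein, at distances of 0.20 and 0.21 on the log2 scale. For CRNDE they were LZTS2 (0.25) and NISCH (0.29), and for PVT1 SPECC1L (0.31) and DUSP28 (0.32). MALAT1 had the least close ones, CYB5RL (0.37) and SENP5 (0.47). These distances describe 8 libraries of 2 lines.

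Long noncoding RNAs outside the 10, from a list of 40 known from cancer, included larger differences between the lines than the members showed. Of the 40 symbols 23 had an entry. Of 21 tested entries 6 were called higher and 8 lower in RT112 Scr, and 7 and 7 of 21 in siPAI-1, beside the 51.6% and 52.2% of all genes called. CASC9 was at 0 to 0.45 TPM in UM-UC-3 and at 33.92 to 36.14 TPM in RT112. LINC00511 was at 1.98 to 3.09 TPM in UM-UC-3 and at 59.64 to 64.91 TPM in RT112. In the other direction LINC00162 was at 29.66 to 34.58 TPM in UM-UC-3 and at 0 to 0.38 TPM in RT112, and LINC00473 was at 2.93 to 3.77 TPM in UM-UC-3 and listed at 0 in RT112. The lines did not overlap in any of these 4, which were named for being called with the largest changes. Over all genes the lines did not overlap for 72.3% in Scr and 73.7% in siPAI-1. Of 23 listed snoRNA host genes, whose introns hold small nucleolar RNAs, only 7 had an entry under their symbol. All 7 were tested, with 3 called higher and 0 lower in RT112 Scr by limma (3 and 0 at an unadjusted p under 0.05). SNHG18 was at 1.03 to 1.98 TPM in UM-UC-3 and at 16.28 to 17.76 TPM in RT112, and SNHG8 was at 23.57 to 33.91 TPM and at 62.25 to 85.5 TPM. EPB41L4A-AS1 was 0.64 higher in RT112 Scr on the log2 scale (SE 0.125) and was not called in siPAI-1 (0.27, SE 0.265, limma adjusted p = 0.442). In siPAI-1 4 snoRNA host genes were called higher and 0 lower by limma (4 and 0 at an unadjusted p under 0.05): SNHG18 and SNHG8 again, SNHG9, with a log2 fold change of 1.45 (SE 0.235), and SNHG19, with 0.42 (SE 0.0891). The median log2 fold change in Scr was 0.38 over the snoRNA host genes, 0 over the other cancer-related RNAs and -0.06 over all genes, and in siPAI-1 it was 0.63, -0.35 and -0.02.

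**Figure D4:**
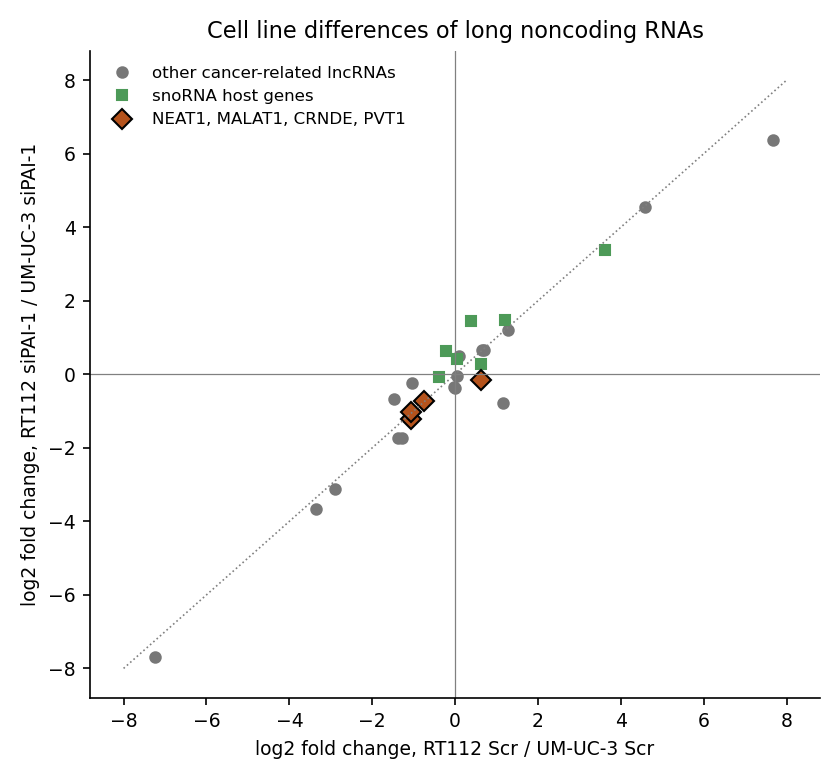
Log2 fold changes of RT112 against UM-UC-3 in Scr (horizontal axis) and in siPAI-1 (vertical axis) for the long noncoding RNAs of both lists, without genes listed at 0 in all libraries of a line, and for the 4 members. The dotted line marks equal values. NEAT1, MALAT1 and CRNDE lie together between -1.23 and -0.73, and PVT1 is positive in Scr and negative in siPAI-1.

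The mRNAs of proteins that work with these RNAs were compared between the lines as well. Of 14 entries for paraspeckle proteins, the partners of NEAT1, 3 were called higher and 7 lower in RT112 in Scr and likewise 3 and 7 in siPAI-1, with medians of -0.28 and -0.26 on the log2 scale. Over all genes 51.6% were called in Scr, 4850 higher and 5059 lower, and 52.2% in siPAI-1, 5064 higher and 5044 lower, with medians of -0.06 and -0.02. SMARCA4, the chromatin remodeller BRG1, was at 15.05 to 19.01 TPM in UM-UC-3 and at 75.08 to 82.32 TPM in RT112, a log2 fold change of 2.27 in Scr (SE 0.0993). RBM14 and DAZAP1, both RNA-binding proteins, were lower in RT112 Scr by log2 fold changes of -0.62 (SE 0.0904) and -0.47 (SE 0.0428). PSPC1, a core paraspeckle protein, was 0.40 higher (SE 0.0549). TARDBP has 2 entries and is uncertain. Among 8 proteins of nuclear speckles and MALAT1 processing, 1 was called higher and 2 lower in Scr, and 2 and 2 in siPAI-1, shares below and near the 51.6% and 52.2% of all genes. METTL16, which binds the MALAT1 triple helix, had a log2 fold change of -0.98 in Scr (SE 0.0955), SON, a scaffold of speckles, 0.77 (SE 0.0506), and the splicing factor PRPF8 -0.36 (SE 0.0568).

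Several long noncoding RNAs are reported to bind the chromatin complexes PRC2 and LSD1. Of 11 subunits and partners, 5 were called higher and 1 lower in RT112 Scr, and 4 and 2 in siPAI-1, with medians of -0.07 and -0.01, which is near the 51.6% and 52.2% called over all genes. KDM1A, the demethylase LSD1, was at 81.27 to 85.52 TPM in UM-UC-3 and at 253.19 to 261.11 TPM in RT112. JARID2, an accessory subunit of PRC2, was at 14.18 to 17.42 TPM in UM-UC-3 and at 6.73 to 7.99 TPM in RT112. RBBP7 and HDAC1, histone-binding and histone deacetylase proteins, were higher in RT112 Scr by 0.49 (SE 0.0485) and 0.44 (SE 0.0851) on the log2 scale. EZH2, the catalytic subunit of PRC2, had -0.13 in Scr (SE 0.0692, limma adjusted p = 0.202). Of 11 genes of nonsense-mediated decay, which degrades many snoRNA host transcripts, 1 was called higher and 2 lower in Scr, and 1 and 4 in siPAI-1, below those shares of all genes. UPF3A had a log2 fold change of -1.01 (SE 0.0627) and SMG9 of -0.66 (SE 0.0602) in Scr.

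Of the genomic neighbours and imprinted partners of all 10 RNAs, 8 of 14 tested were called higher and 2 lower in RT112 Scr, and 9 and 1 of 15 in siPAI-1, with medians of 0.83 and 0.44. Over all genes 51.6% were called in Scr and 52.2% in siPAI-1, about as many higher as lower. IGF2, the growth factor gene next to H19, was at 0.46 to 0.87 TPM in UM-UC-3 and at 64.81 to 92.38 TPM in RT112. SLC3A2, which encodes an amino acid transporter subunit and neighbours SNHG1, was at 143.35 to 155.11 TPM in UM-UC-3 and at 645.24 to 1027.54 TPM in RT112. HOXC9, of the homeobox cluster that holds HOTAIR, was at 0 to 0.48 TPM in UM-UC-3 and at 3.63 to 5.84 TPM in RT112. Close to MALAT1, LTBP3 was at 15.77 to 22.82 TPM in UM-UC-3 and at 111.26 to 121.86 TPM in RT112. Next to NEAT1, FRMD8 had a log2 fold change of -0.82 in Scr (SE 0.116, limma adjusted p = 0.00682) and -0.27 in siPAI-1 (SE 0.181, adjusted p = 0.287), and the difference of its siPAI-1 effects did not pass (0.55, adjusted p = 0.737).

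Within the lines, siPAI-1 against Scr gave 0 called genes in each of these 7 lists, by limma, as over all genes. At an unadjusted p under 0.05 the lists together had 5 genes for UM-UC-3 and 6 for RT112. Most of those for UM-UC-3 were from the list of nuclear speckles and MALAT1 processing, with 1 higher and 2 lower of 8 tested. The lists had 7 to 19 tested entries each in UM-UC-3 and 7 to 21 in RT112. Over all genes 6.01% passed this limit in UM-UC-3 and 5.77% in RT112. The smallest such p in UM-UC-3 belonged to SNHG9, with a log2 fold change of -0.87 (limma adjusted p = 0.791), and in RT112 to WDR74, next to SNHG1, with -0.30 (adjusted p = 0.838). Both were chosen after their values were seen.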

How the data were processed

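The expression values deposited by the authors are TPM and FPKM with 2 decimals. The submitters' processing notes name STAR 2.5.0, RSEM 1.2.25 and GRCh38, whereas the methods name cutadapt, STAR and featureCounts. The methods state a count model for the comparisons. Counts were not used here, so limma 3.58.1 in R 4.3.3 (lmFit, eBayes with trend, two-sided) was run on log2(TPM + 0.1) over the genes that any fitted library had above 0 TPM, with Benjamini-Hochberg adjustment and calls at 0.05. Fold changes on this scale understate those of low genes. An exact permutation test of 2 against 2 libraries cannot reach 0.05. The deposited FPKM values served as an alternative and for the depth estimate (searched from 20 to 45 M reads of 75 bases), which gives at least 56.4 reads behind each MALAT1, NEAT1, PVT1 and CRNDE value if the shortest transcript is taken. Types came from GENCODE 44 (26624 of 27475 genes matched, 7050 of them long noncoding) and promoters from RefSeq. Promoter windows were taken for 3 of the members, CRNDE, MALAT1 and MEG3. The 10 symbols, the lists and the comparisons were chosen with earlier results of these data known. Named genes were the members, the genomic neighbours, 2 most-like genes per member and, per list and comparison, up to 4 called genes with the largest change and a mean of at least 1 TPM. Some genes covered by this rule are not reported here. The fits and the depth estimate were tested on simulated data. Summaries used Python 3.11.15, pandas 2.3.3, numpy 2.4.6 and matplotlib 3.10.9. The alternatives were pseudocounts of 1 and 0.01 TPM, a filter at a mean of 1 TPM, no filter, FPKM, rescaling by the median ratio, no trend, 1 fit over all 8 libraries, a replicate block and each library left out in turn. A sum of both MALAT1 entries was added after seeing the data.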

Additional observations from a re-analysis of the deposited data

Results flagged for a closer look

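PVT1 had log2 fold changes of opposite sign after PAI-1 depletion: 0.41 for UM-UC-3 (limma adjusted p = 0.791) and -0.39 for RT112 (adjusted p = 0.838). Neither passed the threshold. Its siPAI-1 and Scr values overlapped in neither line, but a lack of overlap is common. It was found for 32.2% of all genes tested with UM-UC-3 and 32.7% of those tested with RT112. The difference of the effects was -0.80 (SE 0.194), which did not pass the adjustment over 20274 genes (limma adjusted p = 0.632). Its unadjusted limma p was under 0.05, a limit that 6.76% of these genes reached. Over the alternatives other than leaving out a library, the difference was -0.81 to -0.78 with adjusted p of 0.472 to 0.741. Leaving out single libraries moved it more, from -0.99 (without RT112 Scr library 1) to -0.60 (without RT112 Scr library 2).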

How the results depend on the processing

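The number of members called between the lines was 3 in Scr and 2 in siPAI-1, and with no filter on low values it was 1 in each. Without single libraries each of the 3 calls in Scr was lost in some fits. Some entries called in such fits, among them MALAT1 in Scr, were not called in the main fit. The log2 fold changes in Scr were then -1.15 to -0.96 for NEAT1, -1.36 to -0.77 for CRNDE and 0.43 to 0.82 for PVT1. No member was called within a line or in the difference of the effects under any of these alternatives. Over all genes, no filter gave 29 calls in UM-UC-3, 58 in RT112 and 73 in the difference, the filter at a mean of 1 TPM 1 in UM-UC-3, the fit over 8 libraries 2 in RT112, and no trend 7 in the difference, where leaving out a library gave 0 to 123. PVT1 between the lines in Scr had an adjusted p of 0.153 with no filter, 0.0875 without trend and 0.0511 with a replicate block; CRNDE had 0.1 with no filter. MALAT1 in siPAI-1 was called with the filter at a mean of 1 TPM (adjusted p = 0.0248) and with the replicate block (0.0148), and NEAT1 in siPAI-1 was not with no filter (0.0712). The replicate numbers are not taken as pairs: deviations of same-numbered libraries had correlations of -0.0431 to 0.0437 over 12803 genes, so the block shows only what a shared number would do. The block left 2 members called in Scr and 3 in siPAI-1.

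Only uncalled effects changed direction. The siPAI-1 effect on MALAT1 in RT112 was -0.00036 with both entries summed, and its difference between the lines -0.10 with both summed and -0.0022 after rescaling by the median ratio. Without single libraries, the log2 fold change in UM-UC-3 was -0.21 to 0.38 for CRNDE and -0.021 to 0.23 for MALAT1, in RT112 -0.36 to 0.22 for NEAT1 and -0.39 to 0.63 for MALAT1, and the difference of the effects -0.46 to 0.12 for NEAT1, -0.24 to 0.35 for CRNDE and -0.50 to 0.53 for MALAT1. The causes were not tested. With 2 libraries a group, a lone library is assumed to vary like the others, and PVT1 within a line passed no adjusted test. Its unadjusted limma p in RT112 was 0.0509 to 0.127 with a pseudocount of 1 or 0.01 TPM, FPKM, no trend or no filter.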
